A study of Mus musculus with 12 samples.

Results

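The genes described here write, erase and read DNA methylation. They are the writers Dnmt1, Dnmt3a and Dnmt3b, the erasers Tet1, Tet2 and Tet3, and the readers Mbd1, Mbd2, Mbd3 and Mbd4, taken by their gene names from the deposited count table, and they make up 10 of its 23420 genes. Their RNA was measured by bulk RNA sequencing in monocytic myeloid-derived suppressor cells (M-MDSCs), immature myeloid cells of bone marrow, sorted as CD11b+Ly6G-Ly6Chi. The cells came from 6 young mice, aged 6 months, and from 6 aged mice, aged 24 months, all males of the strain C57BL/6JNIA with no treatment or engineered allele named for these libraries, and each library held the cells of 1 mouse. The question was how the RNA of this machinery differs between the ages, and DNA methylation itself was not measured.

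DNA methyltransferases place a methyl group on the cytosine of CpG dinucleotides. Dnmt1 copies the marks of the parent strand onto the new strand at the replication fork, whereas Dnmt3a and Dnmt3b set marks at unmethylated sites. Tet enzymes oxidize 5-methylcytosine with 2-oxoglutarate and oxygen, the first step of its removal, and Mbd proteins bind methylated DNA through a shared domain and bring in repressor complexes. In blood, mutations of DNMT3A and TET2 are the most frequent drivers of age-related clonal haematopoiesis, in which 1 mutated stem cell gives rise to a growing share of the blood cells. Such mutations would have to be read from DNA or from reads, and gene counts do not show them.

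Promoters of writers and erasers are shown because these genes are called lower in aged mice in the comparison that follows. Each sequence covers 250 bases before and 50 bases after a transcription start of RefSeq (build GRCm38.p6, the assembly that mm10 coordinates describe), read 5′ to 3′ on the strand of the gene. In the Dnmt1 window at chr9:20952574-20952873 (minus strand) capitals mark 2 matches to the core of the motif of E2F, the transcription factor family of genes used in S phase, searched as TTTGGCGC or TTTCGCGC on both strands. In the windows of Dnmt3a at chr12:3806730-3807029 (plus strand), Tet2 at chr3:133544341-133544640 (minus strand) and Tet3 at chr6:83441629-83441928 (minus strand), capitals mark each CG, the dinucleotide that these enzymes act on.
Dnmt1: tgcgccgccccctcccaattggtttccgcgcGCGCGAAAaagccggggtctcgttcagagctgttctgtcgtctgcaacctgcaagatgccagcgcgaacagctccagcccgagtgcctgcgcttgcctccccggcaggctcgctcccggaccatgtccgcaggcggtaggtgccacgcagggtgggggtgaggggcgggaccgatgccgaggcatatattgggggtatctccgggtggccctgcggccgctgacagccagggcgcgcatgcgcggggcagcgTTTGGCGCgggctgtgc
Dnmt3a: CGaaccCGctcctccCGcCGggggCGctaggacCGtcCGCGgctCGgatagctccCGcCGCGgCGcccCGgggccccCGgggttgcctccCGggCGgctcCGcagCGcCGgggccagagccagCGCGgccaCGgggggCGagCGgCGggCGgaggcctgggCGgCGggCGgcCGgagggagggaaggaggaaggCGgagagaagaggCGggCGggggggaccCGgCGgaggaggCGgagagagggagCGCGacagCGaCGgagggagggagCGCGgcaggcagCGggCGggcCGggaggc
Tet2: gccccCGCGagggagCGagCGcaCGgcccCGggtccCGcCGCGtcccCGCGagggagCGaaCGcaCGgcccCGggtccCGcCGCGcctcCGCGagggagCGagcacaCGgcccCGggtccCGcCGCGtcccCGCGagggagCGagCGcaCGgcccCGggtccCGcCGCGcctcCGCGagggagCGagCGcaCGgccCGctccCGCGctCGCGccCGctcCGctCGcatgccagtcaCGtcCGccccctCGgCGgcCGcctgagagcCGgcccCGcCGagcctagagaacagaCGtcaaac
Tet3: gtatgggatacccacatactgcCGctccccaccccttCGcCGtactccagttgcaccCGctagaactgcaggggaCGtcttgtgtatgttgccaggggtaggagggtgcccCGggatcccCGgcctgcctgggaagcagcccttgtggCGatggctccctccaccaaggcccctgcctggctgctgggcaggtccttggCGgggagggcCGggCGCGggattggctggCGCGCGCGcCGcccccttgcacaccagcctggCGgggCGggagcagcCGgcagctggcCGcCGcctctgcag

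Of the 10 genes, 8 matched the RefSeq promoter table by symbol, with 12 windows of 300 bases among them. The Tet2 window held 57 CG dinucleotides, a number that 0.152% of all 32851 promoter windows of the table reached. The Dnmt3a window held 46 (reached by 1.65% of windows), that of Dnmt1 33 (8.56%) and that of Tet3 22 (23.1%), against a median of 7 over all windows. A second start of Dnmt3a at chr12:3806910-3807209 held 47, and the windows of Dnmt3b, Mbd4 and Mbd3 held 30, 25 and 22. The other windows of Dnmt1, at chr9:20952930-20953229 and at the outer end of the gene, chr9:20959839-20960138, held 12 and 2, a window inside Dnmt3a at chr12:3891494-3891793 held 18, and that of Tet1 held 17. A match to the E2F core stood in 0.813% of all windows and, among the 12, only in the Dnmt1 window printed above. The core letters GAGGAAGT of PU.1 and TTGCGCAA of C/EBP, the leading factors of myeloid cells, were in none of the 12 windows (3.20% and 0.183% of all windows). The Dnmt3a window held 6 matches to GGGCGG of Sp1, a core that 35.7% of all windows hold at least once. These matches describe letters only, and no binding was measured.

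The young libraries held 4613239 to 9079237 counted fragments and the aged ones 8737941 to 16300374, so that a count of 3 stood for 0.306 to 0.643 CPM (counts scaled to a common library total) in young and 0.188 to 0.350 CPM in aged mice. In all, 9742 genes had enough counts to be tested with edgeR's quasi-likelihood test. Defining markers were read first. Of 8 classical monocyte genes all 8 had enough counts to be tested, with a summed level of 3429 to 4587 CPM in aged and 4072 to 4299 CPM in young mice, most of it from Itgam, which encodes CD11b. The 7 neutrophil granule and receptor genes listed summed to far more although the gate leaves out Ly6G+ cells, the neutrophil lineage, with 77509 to 92643 CPM in aged and 60435 to 83028 CPM in young mice, and 3 of the 7 were called higher in aged mice (22.4% of all genes tested were), of which none stayed called with the correction for gene length described further on (edgeR). The cells are called M-MDSCs here by their label, and the share of neutrophil RNA in the levels that follow was not tested. Young replicates 5 and 6 stood apart from the other young mice on the first 2 principal components, and their 10 most abundant genes took 14.3% and 14.5% of the counts against 17.2% to 18.5% in the other young mice. For the Dnmt, Tet and Mbd genes, calls that change without these 2 mice are given both ways, and the lists of other genes were not fitted without them.

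The writers and erasers that could be tested were lower in aged M-MDSCs, and the readers were split. Of the 9 genes that could be tested, Dnmt1, Dnmt3a, Tet1, Tet2 and Tet3 were called lower in aged mice and Mbd2 was called higher, whereas Mbd1, Mbd3 and Mbd4 were not called. A gene is called where its adjusted p-value (edgeR, Benjamini-Hochberg over all 9742 genes) was under 0.05, and 45.4% of all genes tested were called, 23% lower and 22.4% higher. The median log2 fold change of the 9 genes was -0.49, against 0.01 for all genes tested. With a correction for gene length, described further on, Tet2 and Tet3 alone stayed called, both lower, and the median was -0.21. For Dnmt3a, Tet1, Tet2 and Tet3, all aged mice lay below all young mice, which held for 12.1% of all genes tested, and values that do not overlap were found for 21.8% in either direction and for 9.68% with the aged mice higher. In bulk RNA, fewer cells that express a gene and less RNA per cell cannot be told apart.

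**Figure D1:**
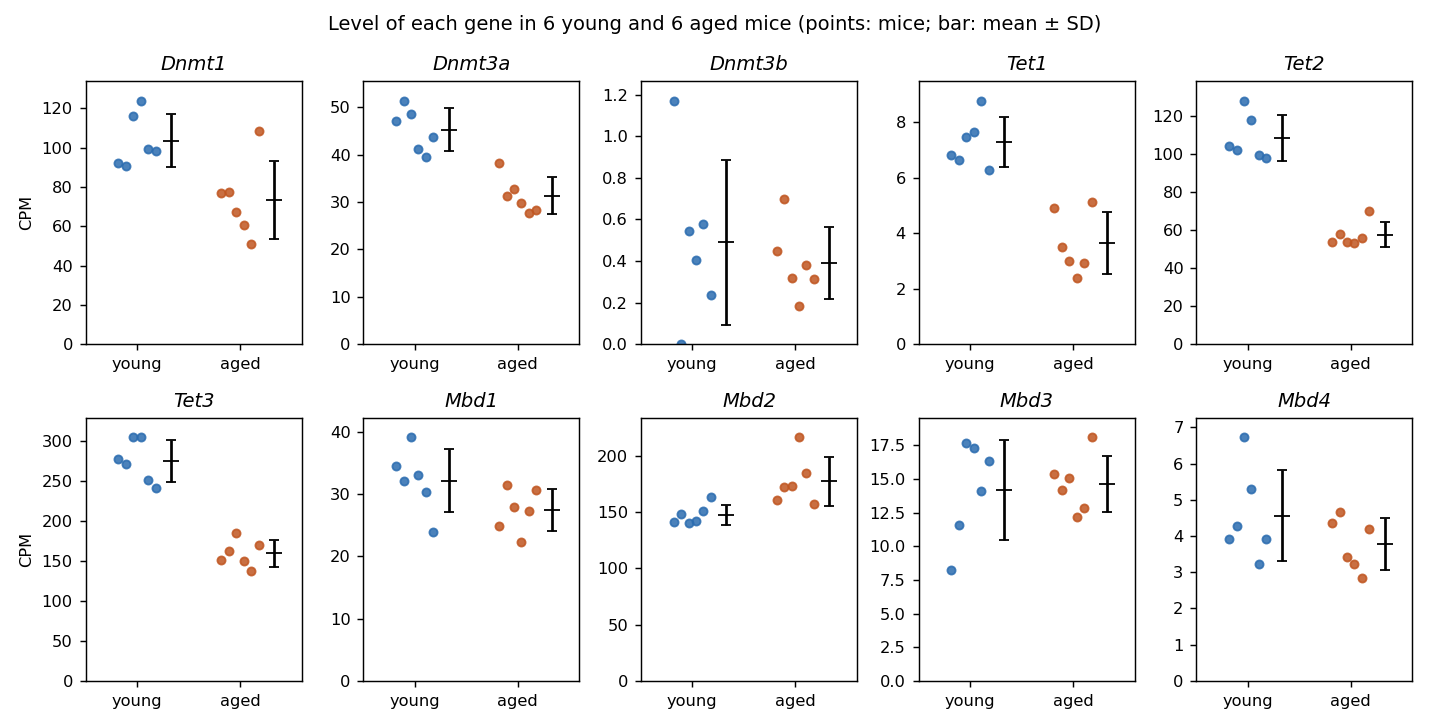
Each panel plots the level of a gene in CPM (linear axis from 0) for young mice (blue points) and aged mice (orange points), with the mean ± SD beside each age, n = 6 mice each. The aged points of Dnmt3a, Tet1, Tet2 and Tet3 lie below all young points, those of Dnmt1 and Mbd2 overlap with the young points, and Dnmt3b reaches 1.17 CPM at most.

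Among the erasers, Tet3 was the most abundant Tet gene. It encodes the Tet enzyme known for oxidizing the paternal genome in the zygote, and it lies on the minus strand of chromosome 6 (chr6:83362374-83441678, mm10, 10906 bases over 11 exons). In young mice Tet3 had a lowest level of 241, a median of 275 and a highest level of 305 CPM, and in aged mice the lowest, median and highest levels were 138, 157 and 185 CPM. The highest aged mouse therefore lay well below the lowest young mouse. Tet3 was 1.73-fold lower in aged mice, or -0.79 on the log2 scale (standard error 0.083, edgeR, adjusted p = 1.23e-05), and with the length correction it was at -0.21 (edgeR, adjusted p = 0.0163). The mean level was 159 ± 16.7 CPM (SD, n = 6) in aged and 275 ± 26.4 CPM (SD, n = 6) in young mice.

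Tet2, the Tet gene whose loss expands blood stem cells and monocytes in mice, lies on chromosome 3 (chr3:133463677-133544390, minus strand, 9181 bases over 11 exons). Its lowest, median and highest levels were 97.5, 103 and 128 CPM in young mice and 53.0, 54.9 and 70.1 CPM in aged mice. The other aged mice lay within a narrow range up to 58.0 CPM, aged replicate 7 alone stood above it, and no aged mouse reached the young range. Tet2 was 1.88-fold lower in aged mice, a log2 difference of -0.91 (standard error 0.089, edgeR, adjusted p = 7.03e-06), with means of 57.4 ± 6.49 CPM (SD, n = 6) and 108 ± 12.1 CPM (SD, n = 6). This was the smallest adjusted p-value of the 9 genes tested, and with the length correction Tet2 was at -0.43 (edgeR, adjusted p = 1.91e-04).

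Tet1, the Tet enzyme of embryonic stem cells and the only one of the 3 with little RNA here, was read from 26 to 82 fragments in each aged and 31 to 76 in each young mouse. It lies on chromosome 10 (chr10:62804570-62880014, minus strand) and is the longest of the 10 genes, with 14082 bases over 12 exons. Its lowest, median and highest levels were 6.27, 7.16 and 8.79 CPM in young mice and 2.40, 3.25 and 5.14 CPM in aged mice, with aged replicates 1 and 7 nearest to the young mice. Tet1 differed by -0.99 on the log2 scale (standard error 0.189, edgeR, adjusted p = 8.70e-04), the largest fall of the 9 genes tested, with the widest standard error among the genes that were called. With the length correction it was -0.30 and not called (edgeR, adjusted p = 0.203), and Tet2 had the largest fall.

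Per length, the shares of the 3 Tet genes were compared within each mouse. Tet3 made up 65.9% to 68.3% of the summed Tet RPKM (CPM per kilobase of exon) in young mice, with a median of 67.2%, and 66.1% to 73.6% in aged mice, with a median of 69.3%. The share of Tet2 was 30.4% to 32.9% in young and 25.5% to 32.3% in aged mice, and that of Tet1 was at most 1.81% in any mouse. For each of the 3 shares the ranges of the ages overlapped, and the shares were not tested. The aged median of Tet3 lay above its highest young mouse. The aged medians of Tet2 (29.4%) and Tet1 (1.13%) lay below their lowest young mice (30.4% and 1.25%).

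Among the writers, Dnmt1, the maintenance methyltransferase, was the most abundant Dnmt gene. It lies on the minus strand of chromosome 9 (chr9:20907206-20959888, 6304 bases over 41 exons). In young mice the lowest, median and highest levels of Dnmt1 were 90.7, 99.1 and 124 CPM, and in aged mice they were 50.8, 72.0 and 108 CPM. Aged replicate 7 stood at 108 CPM, above 4 of the 6 young mice, and the other aged mice lay below every young mouse. Dnmt1 was 1.41-fold lower in aged mice, a log2 difference of -0.49 (standard error 0.147, edgeR, adjusted p = 0.0135), and this was -0.64 without aged replicate 7 (edgeR, adjusted p = 6.93e-04). Without young replicates 5 and 6, the young mice with the highest Dnmt1 levels, it was -0.39 and was not called (adjusted p = 0.0812, edgeR), nor was it with the length correction (-0.20, edgeR, adjusted p = 0.235).

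Dnmt3a, the de novo methyltransferase of blood stem cells, lies on chromosome 12 (chr12:3806980-3914443, plus strand, 9947 bases over 25 exons). Its levels were 39.4, 45.4 and 51.4 CPM (lowest, median and highest) in young mice and 27.6, 30.6 and 38.4 CPM in aged mice. Aged replicate 1 came close to the lowest young mouse without reaching it. Dnmt3a was 1.44-fold lower in aged mice, a log2 difference of -0.53 (standard error 0.094, edgeR, adjusted p = 5.64e-04). With the correction for gene length described further on, no fall was left (0.01, edgeR, adjusted p = 0.973). The gene Gm10485 overlaps Dnmt3a on the other strand, and fragments were counted by strand.

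Dnmt3b, the second de novo methyltransferase and a gene of early embryos, was close to the limit of detection. It lies on chromosome 2 (chr2:153649449-153687730, plus strand, 4327 bases over 24 exons). It had 2 to 6 fragments in each aged and 0 to 6 in each young mouse, where a count of 3 stood for 0.188 to 0.643 CPM, and it was left out of the test by the filter on low counts. A difference between the ages was not detectable for Dnmt3b at this depth, and no fold change is given.

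Among the readers, Mbd2 was the only gene of the 10 called higher in aged mice. It encodes a methyl-CpG-binding subunit of the NuRD repressor complex and lies on chromosome 18 (chr18:70568292-70626131, plus strand, 1850 bases over 7 exons). Its lowest, median and highest levels were 141, 145 and 163 CPM in young mice and 157, 173 and 216 CPM in aged mice. The ranges met, with the highest young mouse above the 2 lowest aged mice. Mbd2 was 1.20-fold higher in aged mice, a log2 difference of 0.26 (standard error 0.078, edgeR, adjusted p = 0.0128). Without young replicates 5 and 6 the difference was 0.21 and was not called (adjusted p = 0.0682, edgeR), nor was it with the length correction (0.12, edgeR, adjusted p = 0.189).

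Mbd1, which carries CXXC zinc fingers besides its methyl-CpG-binding domain and lies on chromosome 18 (chr18:74268288-74282684, plus strand, 2672 bases over 15 exons), had a lowest, median and highest level of 23.9, 32.6 and 39.2 CPM in young mice and 22.4, 27.6 and 31.5 CPM in aged mice. The ranges overlapped, with young replicate 10 at 23.9 CPM and the next lowest young mouse at 30.3 CPM. Its log2 fold change of -0.23 was not called (standard error 0.115, adjusted p = 0.117, edgeR) with all 12 mice. When single mice were left out, it was called only without young replicate 10, the lowest young mouse (-0.30, adjusted p = 0.0286, edgeR).

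Mbd3, a NuRD subunit of mammals that has lost most of its affinity for methylated DNA, lies on chromosome 10 (chr10:80392541-80399479, minus strand, 1589 bases over 7 exons). Its level was 14.6 ± 2.10 CPM (SD, n = 6) in aged and 14.2 ± 3.72 CPM (SD, n = 6) in young mice, where young replicates ranged from 8.20 to 17.7 CPM. Its log2 difference was 0.02, with 2 standard errors either side reaching from -0.30 to 0.35 (adjusted p = 0.914, edgeR). Mbd4, a DNA glycosylase that removes thymine and uracil opposite guanine at CpG sites, lies on chromosome 6 (chr6:115840697-115853341, minus strand, 3584 bases over 8 exons) and was read from 20 to 67 fragments per mouse. Its level was 3.78 ± 0.72 CPM (SD, n = 6) in aged and 4.56 ± 1.26 CPM (SD, n = 6) in young mice. Mbd4 differed by -0.28 on the log2 scale, with 2 standard errors either side reaching from -0.68 to 0.11 (adjusted p = 0.255, edgeR), so for neither gene did the test set the ages apart.

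Between genes, levels can be compared per length. In young mice Mbd2 had the highest RPKM of the 10 genes (79.8 ± 4.75, SD, n = 6), followed by Tet3 (25.2), Dnmt1 (16.4), Mbd1 (12.1), Tet2 (11.8), Mbd3 (8.94), Dnmt3a (4.55), Mbd4 (1.27), Tet1 (0.517) and Dnmt3b (0.113). The ranges of Dnmt1 and Mbd1, of Mbd1 and Tet2, of Tet2 and Mbd3, and of Mbd3 and Dnmt3a overlapped between neighbors in this order. In aged mice Mbd2 was again the highest (95.9 ± 11.7 RPKM, SD, n = 6) and Tet3 next (14.6), then Dnmt1 (11.7), Mbd1 (10.3), Mbd3 (9.22), Tet2 (6.25), Dnmt3a (3.15), Mbd4 (1.06), Tet1 (0.259) and Dnmt3b (0.0902), with overlap between Tet3 and Dnmt1, Dnmt1 and Mbd1, and Mbd1 and Mbd3. Tet2 thus stood above Mbd3 in the order of young mice and below it in that of aged mice. This order was not read with the length correction described further on. That correction put the log2 fold change of Tet2 at -0.43 in place of -0.91 and that of Mbd3 at -0.17 in place of 0.02 (edgeR).

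The ratio of Mbd2 to Tet2 within a mouse was 5.46 to 8.31 in young mice, with a median of 6.97, and 11.1 to 20.2 in aged mice, with a median of 15.4 (RPKM over RPKM). The ranges of the ages did not overlap for this ratio, as the separate changes of the 2 genes fix. The ratio was taken without the length correction described further on. With that correction the log2 fold changes were 0.12 for Mbd2, not called, and -0.43 for Tet2 (edgeR). The summed RPKM of the Tet genes over that of Dnmt1 and Dnmt3a was 1.65 to 1.93 in young mice and 1.18 to 1.75 in aged mice, with medians of 1.78 and 1.47, and the ranges overlapped. The share of Dnmt1 in the summed Dnmt RPKM also overlapped, with medians of 78.2% in young and 76.0% in aged mice.

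Gene length moved with these differences. Across all genes tested, log2 fold changes fell with the length over exons (Spearman's rho = -0.48 across genes, which are not independent replicates), and the 9 genes tested had a median length of 6304 bases against 2890 bases for all genes tested. The 5 genes that fell were the 5 longest of the 9, from Dnmt1 with 6304 to Tet1 with 14082 bases, and Mbd2 and Mbd3 were the shortest. Each library was therefore also corrected for its own dependence on gene length, after which rho was 0.02 and 16.6% of all genes were called lower and 18.3% higher. What lies behind the dependence on length was not tested.

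**Figure D2:**
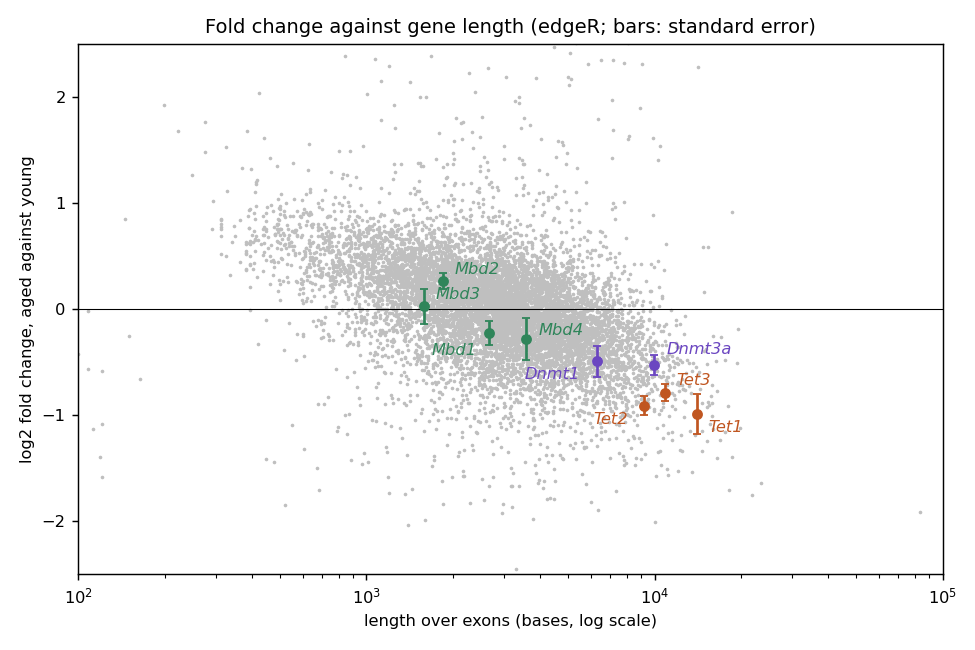
The plot sets the edgeR log2 fold change of aged against young mice (vertical axis) against the length over exons in bases (horizontal log axis) for the genes tested (gray points, with 33 genes outside the axes) and for the 9 tested genes of DNA methylation (writers purple, erasers orange, readers green, bars 1 standard error). Tet1, Tet2, Tet3, Dnmt1 and Dnmt3a lie at the long end, where the gray points are also mostly below 0, and Tet1 at 14082 bases is the longest.

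After this correction 2 of the 9 genes were called, both lower in aged mice. Tet2 was then at -0.43 (edgeR, adjusted p = 1.91e-04) and Tet3 at -0.21 (edgeR, adjusted p = 0.0163), smaller falls that were past the threshold with all 12 mice. Tet3 was not called where the correction was joined with a replicate block on 8 mice (-0.26, edgeR, adjusted p = 0.0919). Tet1 (-0.30, adjusted p = 0.203, edgeR) and Dnmt1 (-0.20, adjusted p = 0.235, edgeR) were lower without being called. Dnmt3a was at 0.01 (adjusted p = 0.973, edgeR), on the other side of 0, and Mbd2 was at 0.12 (adjusted p = 0.189, edgeR). Mbd1 stayed at -0.25 (adjusted p = 0.0994, edgeR), and the median of the 9 genes was -0.21.

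**Figure D3:**
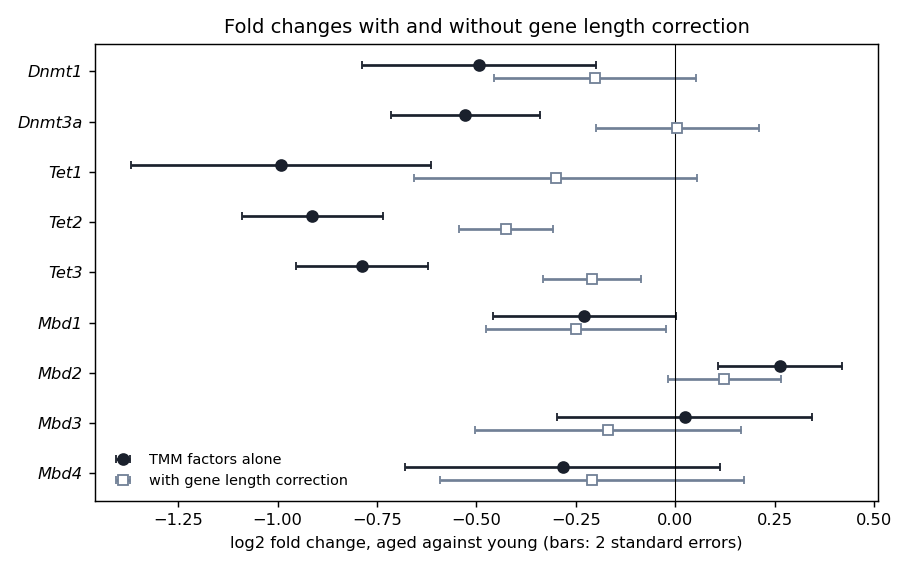
The log2 fold change of aged against young mice from edgeR is plotted for each tested gene with TMM factors alone (filled circles) and with the correction for gene length (open squares), with bars of 2 standard errors. With the correction, the bars of Tet2 (-0.43) and Tet3 (-0.21) stay below 0, and Dnmt3a moves to 0.01.

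Dnmt1 is transcribed in dividing cells, so its level was set beside that of 16 genes of DNA replication and mitosis. Of these genes, 2 were called lower in aged mice (23% of all genes tested were) and the other 14 were not called (edgeR), with a median log2 fold change of -0.12. Mki67, the marker of cycling cells, fell from 399 ± 188 CPM (SD, n = 6) to 99.0 ± 39.2 CPM (SD, n = 6), or by -2.01 in log2 (edgeR, adjusted p = 1.34e-04), and Top2a, the topoisomerase of dividing cells, from 319 ± 67.5 to 208 ± 89.5 CPM (-0.62, adjusted p = 0.0315, edgeR). After the length correction only Mki67 stayed called (-1.47, adjusted p = 6.71e-04, edgeR), and Top2a did not (-0.41, adjusted p = 0.124, edgeR). The Mcm helicase genes, the cyclins and Cdk1 were among those not called.

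Within each age, mice with more RNA of these 16 genes also had more Dnmt1. The ages form separate clusters, so no pooled value is given. Among the 6 young mice Pearson's r of Dnmt1 with the mean log2 CPM of the 16 genes was 0.974 (exact permutation test, two-sided, p = 0.00556, adjusted over the 2 ages 0.0111), with Spearman's rho of 0.943 (exact permutation p = 0.0167) and r = 0.954 without the 2 mice farthest from the median. Among the 6 aged mice r was 0.844 (exact permutation p = 0.0361, adjusted 0.0361), rho was 0.714 (exact permutation p = 0.136) and r without the 2 farthest mice was 0.884. Leaving out any aged mouse ended the call in the aged group, with r from 0.668, without aged replicate 7, to 0.945. Dnmt1 was not compared between the ages at a like level of the 16 genes, and the part of proliferation in its difference was not tested.

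**Figure D4:**
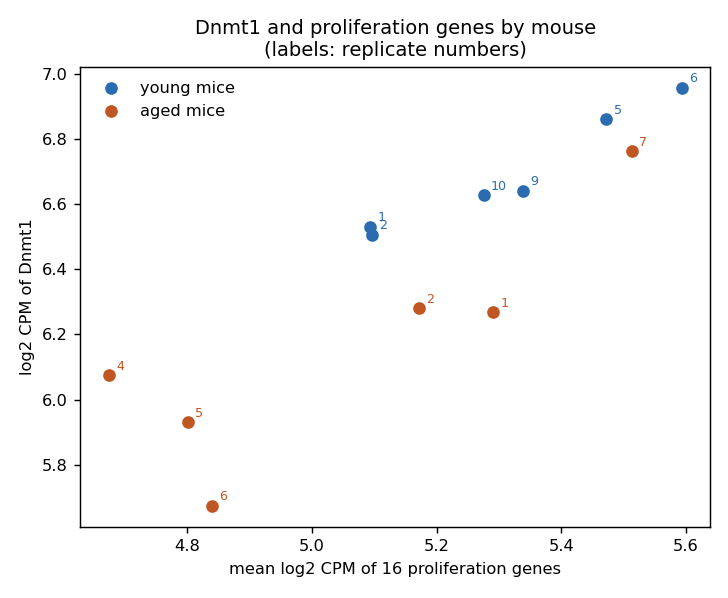
Each point is a mouse, with the mean log2 CPM of 16 proliferation genes on the horizontal axis, the log2 CPM of Dnmt1 on the vertical axis and its replicate number beside it (young blue, aged orange). Within each color Dnmt1 rises with the proliferation genes (r = 0.974 in young and 0.844 in aged mice), and 5 of the 6 aged points lie below all young points.

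Over the 12 mice, with each age centered on its own mean, Dnmt1 went with Tet1 (r = 0.739) and Tet2 (r = 0.740) and did not go with Dnmt3a (r = -0.02). It also went with Mbd4 (0.678), Mbd3 (0.647), Tet3 (0.575) and Mbd1 (0.403), and it went against Mbd2 (-0.639). The strongest pair among the genes tested was Tet1 with Mbd2 (r = -0.802). Among the 6590 genes that averaged 10 CPM or more, those most like Dnmt1 were Slc45a4 (r = 0.990), Tpx2 (0.974) and Cenpf (0.957), the latter 2 being genes of the mitotic spindle and kinetochore. The nearest to Tet2 were Usp15 (0.982), Dnahc8 (0.976) and Ralgapa1 (0.974), and the nearest to Dnmt3a were Sirt6 (0.834), Slc43a2 (0.815) and Fech (0.797). These correlations describe 12 libraries that differ in depth and are given without a test. They were computed without the correction of each library for its own dependence on gene length.

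Genes that work with Dnmt1 at the fork were lower or not called. Of 8 tested genes (9 listed, 1 of the tested being Dnmt3l, the cofactor of Dnmt3a, which was not called), 3 were called lower (edgeR, against 23% of all genes tested) and the other 5 were not called, with a median log2 fold change of -0.34. Hells, a remodeler that opens chromatin for methylation, fell from 7.35 ± 1.30 to 4.31 ± 1.17 CPM (SD, n = 6 each; log2 fold change -0.78, edgeR, adjusted p = 0.00424), and all aged mice lay below all young mice. Uhrf2 fell by 0.61 (log2; adjusted p = 0.00114, edgeR) and Usp7, the deubiquitinase that stabilizes Dnmt1 and the gene of this group with the highest RPKM, by 0.38 (log2; adjusted p = 0.00299, edgeR). Uhrf1, the reader of hemimethylated DNA that recruits Dnmt1, had 34.1 ± 7.65 CPM in aged and 42.0 ± 7.21 CPM in young mice and was not called (-0.31, adjusted p = 0.101, edgeR), nor was Pcna, the clamp of the fork (-0.01, adjusted p = 0.971, edgeR). After the length correction Hells and Uhrf2 were called lower (16.6% of all genes were), and Usp7 was not (-0.14, adjusted p = 0.117, edgeR).

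Of 10 other tested genes with a methyl-CpG-binding zinc finger or a domain like that of the Mbd proteins (11 listed), 7 were called lower and 2 higher (23% and 22.4% of all genes tested), with a median of -0.32. The largest fall was that of Baz2b (-0.96, adjusted p = 2.15e-05, edgeR), a bromodomain gene of chromatin remodeling, and its relative Baz2a had the highest RPKM of the group and fell by 0.52 (log2; adjusted p = 5.14e-04, edgeR). The largest rise was that of Zbtb4, a zinc finger reader, from 2.46 ± 0.61 to 4.85 ± 1.61 CPM (1.01, adjusted p = 0.00409, edgeR). After the length correction 3 of the 10 were called lower and 3 higher (16.6% and 18.3% of all genes tested), Baz2b was at -0.53 (adjusted p = 3.69e-04, edgeR) and Baz2a was not called (-0.08, adjusted p = 0.391, edgeR).

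The NuRD complex, in which Mbd2 and Mbd3 take each other's place, had more genes called with the length correction than without it. Of its 11 other subunit genes 2 were called higher and 1 lower (22.4% and 23% of all genes tested), with a median of 0.06, and after the correction 4 were called higher and 2 lower (18.3% and 16.6%), with a median of 0.08. Mta3 rose by 0.60 in log2 (edgeR, adjusted p = 0.00620) and the ATPase gene Chd4 fell from 335 ± 10.9 to 234 ± 40.9 CPM (SD, n = 6 each; -0.52, adjusted p = 6.69e-04, edgeR), with -0.22 left after the correction (adjusted p = 0.0467, edgeR). Chd4 had the highest RPKM of the subunits in young mice and Mta2 in aged mice, and Mta2 was not called (0.06, adjusted p = 0.543, edgeR).

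Downstream of the Tet enzymes, 10 of 17 listed genes of Tet partners and base excision could be tested, of which 3 were called lower (23% of all genes tested) and 7 were not called, with a median of -0.19. After the length correction 6 were called lower and 1 higher (16.6% and 18.3% of all genes), with a median of -0.40. Gadd45g, a stress-induced gene linked to demethylation, had the largest fall, from 14.8 ± 2.13 to 7.16 ± 1.40 CPM (SD, n = 6 each; -1.05, adjusted p = 7.72e-05, edgeR), and with 1080 bases it is short. Ogt, the GlcNAc transferase that binds Tet proteins, fell from 292 ± 118 to 150 ± 26.3 CPM (-0.97, adjusted p = 0.00213, edgeR) with overlap between the ages. Gadd45a had the highest RPKM of the group and was not called (-0.04, adjusted p = 0.717, edgeR), but it was called lower after the length correction (-0.33, adjusted p = 0.00547, edgeR). Tdg, the glycosylase that removes the oxidized bases, had 3 to 16 counts per mouse (0.959 ± 0.392 CPM in aged and 0.721 ± 0.146 CPM in young mice) and was not tested. Whether the filter on mapping quality lowered this count was not examined.

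Genes that supply the cofactors of these enzymes were called in both directions, near the share of all genes. Of 8 tested genes (12 listed) of the methionine and folate cycles and of 2-oxoglutarate metabolism, 2 were called higher and 2 lower (22.4% and 23% of all genes tested), with a median of 0.07, and after the length correction 1 was called higher and 2 lower (18.3% and 16.6%). Mat2b, the regulatory subunit of S-adenosylmethionine synthesis, rose by 0.44 (log2; adjusted p = 9.37e-04, edgeR). Idh1, which makes 2-oxoglutarate in the cytosol, had the highest RPKM of the group and rose by 0.18 (log2; adjusted p = 0.0420, edgeR), a call that the length correction ended (0.14, adjusted p = 0.132, edgeR). Of 4 tested genes whose CXXC domain binds unmethylated CpG, 2 were called lower (23% of all genes tested were) and 2 were not called, with Fbxl19 showing the largest fall (-0.71, adjusted p = 0.00262, edgeR) and Kdm2a the highest RPKM (-0.47, adjusted p = 3.02e-04, edgeR). After the length correction (16.6% of all genes lower) Fbxl19 was called lower (-0.66, adjusted p = 0.00504, edgeR) and Kdm2a was not (-0.10, adjusted p = 0.243, edgeR). Kmt2a and Kmt2b were not analysed here.

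**Figure D5:**
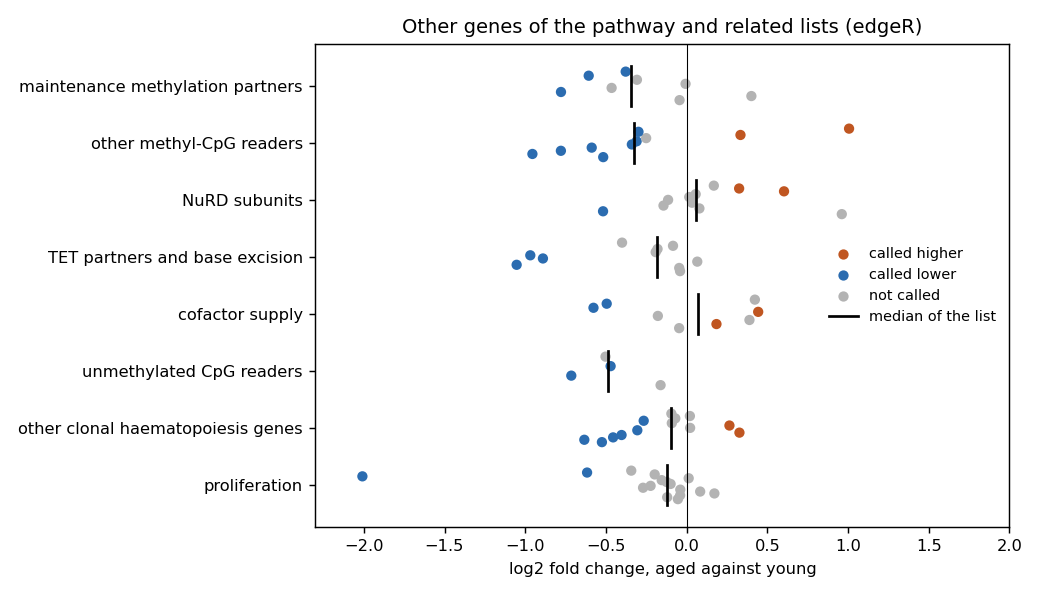
Each point is a tested gene of a list, placed by its log2 fold change of aged against young mice (edgeR, orange called higher, blue called lower, gray not called), and the black bar is the median of the list. The medians lie between -0.49, for readers of unmethylated CpG, and 0.07, for cofactor supply, and Mki67 at -2.01 is the lowest point.

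Of 13 other genes that are mutated in clonal haematopoiesis, 6 were called lower and 2 higher in aged mice (23% and 22.4% of all genes tested), with a median of -0.09. Bcor, a corepressor gene, had the largest fall (-0.63, adjusted p = 6.68e-05, edgeR), which was -0.29 after the length correction (adjusted p = 0.0109, edgeR). Gnb1, a G protein subunit gene, had the largest rise (0.33, adjusted p = 0.00213, edgeR) and the highest RPKM in aged mice, and Cbl, a ubiquitin ligase gene, had the highest in young mice. After the length correction 6 were called lower and 3 higher (16.6% and 18.3% of all genes). Dnmt3a and Tet2, which are not counted among the 13, differed by -0.53 and -0.91 before and by 0.01 and -0.43 after this correction.

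Markers of other cells moved with age beside these results. All 6 listed resident macrophage genes in the table were called higher in aged mice (22.4% of all genes tested were), with a summed level of 39.8 to 776 CPM in aged and 33.6 to 49.9 CPM in young mice. All 4 tested promyelocyte genes were also called higher (33.3 to 47.7 against 19.7 to 31.9 CPM), of which 2 stayed called after the length correction, and all 6 macrophage genes did. Summed levels of B cell genes (2.40 to 12.5 against 2.14 to 3.91 CPM), T and NK cell genes (5.01 to 10.5 against 5.09 to 9.86 CPM) and erythroid genes (0.739 to 5.24 against 0.116 to 0.473 CPM) were low. The erythroid sum held no globin counts, as Hba-a1 and Hba-a2 were at 0 in all libraries and Hbb-bs and Hbb-bt were not analysed. Whether the filter on mapping quality removed globin fragments was not tested. Dendritic cell genes were at 1.39 to 4.66 CPM in aged and 4.62 to 8.86 CPM in young mice, and stem and progenitor genes at 60.4 to 80.4 and 62.3 to 82.3 CPM. In each of these 2 lists 1 of 2 tested genes was called lower (23% of all genes tested were). After the length correction 1 dendritic cell gene was called lower and 1 stem and progenitor gene higher (16.6% and 18.3% of all genes). Plasma cell genes summed to 117 to 170 against 99.7 to 126 CPM. Their 1 tested gene, Xbp1, was called higher with and without the correction. The part of these cells in the levels of the Dnmt, Tet and Mbd genes was not tested.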

How the data were processed

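The authors prepared stranded libraries from total RNA, sequenced them in pairs on a NovaSeq instrument and deposited 1 table of raw counts per gene, with no normalization. Per the file headers, featureCounts 2.0.0 counted fragments by gene name over the exons in UCSC's mm10 gene models, by strand, with both ends on 1 chromosome and a mapping quality of at least 60. The submitters' processing notes also name bcl2fastq, and the aligner is not given in the sources used here. Gene length is the deposited length over exons, another column of that table, and coordinates are those of the table.

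All 12 libraries were used and 0 columns belonged to other samples. No 2 mice of an age had counts that agree within sampling noise (smallest chi-square per gene 1.72). In the table's column names every young mouse has a lower sample number than every aged mouse, and age cannot be told apart from whatever those numbers follow. Xist had at most 1 count per library.

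Genes were kept with filterByExpr by age (minimum count 10), scaled with TMM factors (0.919 to 1.10) and fitted with edgeR 4.0.16 in R 4.3.3, aged against young, with the quasi-likelihood test, p-values adjusted by Benjamini-Hochberg over the 9742 tested genes and called under 0.05. The fit was tested on simulated data. CPM divide each count by the TMM-scaled library total, RPKM are CPM per kilobase, and log2 CPM have a prior count of 2. The biological coefficient of variation was 15.7%, and floors of 3 counts cover counting error only. Correlations within an age were tested by exact permutation with scipy 1.17.1.

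The 10 genes, the lists and the tests were chosen with earlier results of these data known. Each of the 10 genes is described, and of each list the called genes with the largest rise and fall and the gene with the highest mean RPKM over both ages were named, besides Uhrf1, Hells, Pcna, Tdg, Mki67 and Top2a. Values of 2 list genes that this rule names are not reported here. Other genes named were chosen after their values were seen. Alternatives were DESeq2 1.42.0, limma-voom (limma 3.58.1), library totals without TMM factors, upper quartile and relative log expression factors, no filter, at least 10 counts in every mouse, a lowess correction of each library for gene length (span 0.5), thinning to the smallest library, a prior count of 0.5, each mouse left out, and a block on replicate numbers. Mitochondrially encoded genes and Ly6g were not analysed here.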

Additional observations from a re-analysis of the deposited data

Results flagged for a closer look

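The level of Tet2 in aged mice held a mouse far from the others. Aged replicate 7 had 70.1 CPM, the next highest aged mouse had 58.0 CPM, and this gap made up 0.707 of the range of the 6 aged mice. It was the only such case in the 20 groups examined (10 genes in 2 ages), and the 95% critical value used is passed by chance in about 1 in 20 groups. Without this mouse the log2 fold change of Tet2 was -0.98 in place of -0.91. The same mouse had the highest Dnmt1, Tet1 and Mbd3 levels of the aged mice.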

How the results depend on the processing

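Of the 9 genes tested, 6 were called with DESeq2, limma-voom, each other scaling, each other filter and thinned libraries, with 5 lower and 1 higher. With each mouse left out in turn, 6 to 7 were called, 5 to 6 lower and 1 to 1 higher, with medians from -0.52 to -0.40, and 3804 to 4717 of all genes were called (1864 to 2366 higher, 1940 to 2351 lower). The gene length correction left 2 called, with 2 lower and 0 higher, a median of -0.21 and Dnmt3a at 0.0052. Without young replicates 5 and 6, an alternative chosen after seeing the data, 0 of the 9 genes and 1392 of all genes were called higher. In the same fit 4 of the 9 genes and 1765 of all genes were called lower. Without TMM factors, 37.8% of calls were higher in place of 49.4%, and with upper quartile factors 55.4%.

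The ages share 4 replicate numbers, carried by different mice, and same-numbered mice did not deviate together (r from -0.246 to -0.0655 over the 4 numbers). With a replicate block on these 8 mice, 6 of the 9 genes and 3446 of all genes were called, and without the block on the same 8 mice, added after seeing the data, 4394 genes were called and Mbd1 was also called lower (-0.41, adjusted p = 0.0180, edgeR). With the replicate block and the gene length correction together, 1 of the 9 genes was called (Tet2, 1 lower and 0 higher), Tet3 was not (-0.26, adjusted p = 0.0919, edgeR), the median was -0.27, Dnmt3a was at 0.0597, and 1869 of all genes were called, 963 lower and 906 higher.

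Mbd3, at 0.02 with all mice, changed sign without TMM factors (-0.0652), with the length correction (-0.17), with the replicate block (-0.0032), with both (-0.24), without the block on the same 8 mice (-0.0541), and without aged replicate 7 (-0.0492), young replicate 1 (-0.0824) or young replicate 2 (-0.0239), always uncalled, and with single mice left out it lay between -0.0824 and 0.0933. Pearson's r of Dnmt1 with proliferation genes lay between 0.668 and 0.945 with each aged mouse left out, where no exact permutation p was under 0.05 with 5 mice, and between 0.951 and 0.992 with each young mouse left out. Depth limits Dnmt3b, Tet1 and Mbd4, which rest on few fragments per mouse.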
